A study of Homo sapiens with 4 samples.

Results

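Muscleblind-like proteins are zinc-finger RNA-binding proteins that recognise short motifs of a pyrimidine, GC and a pyrimidine and steer alternative splicing, RNA localisation and RNA stability. MBNL1, MBNL2 and MBNL3 are the human members, and their loss onto expanded CUG repeats is a cause of myotonic dystrophy. The transcripts of these genes are themselves alternatively spliced, and the proteins act on some of their own exons, which makes the exons a readout of the family's own regulation. MBNL1 has been described as a suppressor of metastatic colonisation by breast cancer cells. This is background and was not examined in the files.

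The exons described here are those skipped-exon events whose middle exon lay inside MBNL1, MBNL2 or MBNL3 on the same strand in GENCODE release 29. The rule used position alone and no measured value. It found 23 events on 16 exons, among 44447 events on 37641 exons listed for either cell line. Of the 23 events, 15 on 10 exons were in MBNL1, 5 on 3 exons in MBNL2 and 3 on 3 exons in MBNL3, and all 23 were listed for both lines. The lines were MDA-MB-231, an established human triple-negative breast cancer line (here "parental"), and MDA-LM2, its derivative that colonises the lung at a high rate (here "LM2"), both untreated and grown in the same medium. RNA of 2 samples per line was sequenced, but each deposited table holds 1 value per line and event, taken here as pooled. There is therefore no replicate error, no test between the lines is given, and the intervals below cover counting error or the authors' model only.

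Each event consists of a middle exon and its flanking exons, and reads fall into 4 classes. Inclusion reads fit only the transcript that holds the middle exon, exclusion reads fit only the transcript that joins the flanks directly, others fit both or neither. Exclusion reads thus cross the skipping junction. The inclusion level is the authors' estimate of the fraction of transcripts with the exon, from 0 to 1, with the bounds of the deposited interval in brackets. Over all events there were 4701744 inclusion and 955034 exclusion reads for LM2, and 5529885 and 1101330 for parental cells. The MBNL events held 9520 inclusion and 899 exclusion reads in LM2 and 8739 and 948 in parental cells, with some reads counted at several events. Event reads of the listed breast carcinoma markers were 38259 in LM2 and 54542 in parental cells for CD44, 6187 and 5877 for KRT8 and 2883 and 3916 for AXL, while SPARC had 1 in each line. VIM, KRT18, KRT19 and EPCAM had no event listed for both lines, so that their level was not seen here. Of the muscle, leukocyte and neuronal markers, 1 of 9, 1 of 4 and 2 of 4 were listed for both lines. Those listed were low, with at most 15 reads in LM2 and 73 in parental cells (MAP2). No endothelial marker was listed, and the level of unlisted markers was likewise not seen.

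The 54-nt exon is the best known regulated exon of the family. Its inclusion favours nuclear localisation of the protein, and muscleblind-like proteins promote its skipping in their own transcripts, so that it belongs to both the autoregulated and the localisation exons. It was listed for MBNL1 (chromosome 3, 152446704 to 152446757, plus strand, hg38) and MBNL2 (chromosome 13, 97356796 to 97356849, plus strand). No 54-nt exon of MBNL3 was listed. Both are coding and keep the reading frame. The sequences are shown because these paralogous exons were both mostly skipped, and capitals mark the 9 positions at which they differ, 45 of 54 bases being identical.
MBNL1 54-nt exon: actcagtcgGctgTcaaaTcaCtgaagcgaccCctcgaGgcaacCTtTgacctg
MBNL2 54-nt exon: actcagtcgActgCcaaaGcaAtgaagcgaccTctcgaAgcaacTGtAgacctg

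Both 54-nt exons were mostly skipped in both lines. The deposited level of the MBNL1 exon was 0.17 (0.13 to 0.22) for LM2 and 0.23 (0.18 to 0.29) for parental cells. Behind the LM2 level stood 45 reads with the exon and 93 that skipped it, and behind the parental level 64 and 86. The levels were 0.06 apart and the deposited intervals overlapped. The authors' deposited Bayes factor, the ratio of the evidence for a difference to that for none, was 0.38. Counted as odds of inclusion to exclusion reads, LM2 stood at 0.653 times the parental value, with an exact conditional 95% interval of 0.390 to 1.08. The MBNL2 exon stood at 0.09 (0.04 to 0.15) in LM2 and, in parental cells, 0.14 (0.08 to 0.21). The LM2 library gave 7 inclusion and 32 exclusion reads and the parental library 15 and 34, an odds ratio of 0.514 (0.152 to 1.51). The authors' deposited table lists a Bayes factor of 0.23 for it. In both genes the LM2 value was the lower, and in neither were the lines separated beyond the intervals. Within a line, the intervals of MBNL1 and MBNL2 overlapped as well.

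Reads that fit both isoforms, which alone do not tell inclusion from skipping, made up most of the fitting reads at the 54-nt exons. They were 876 in LM2 and 940 in parental cells at the MBNL1 exon, 86.4% and 86.2% of the reads that fit any isoform. At the MBNL2 exon they were 316 and 448, or 89.0% and 90.1%. A read-based level left out the reads that fit both and divided inclusion reads by 2, since they can cross either of 2 junctions. Reads that lie inside the exon count as inclusion reads too, so this divisor does not correct for exon length. The read-based level was 0.195 (0.142 to 0.259) against 0.271 (0.209 to 0.342) for MBNL1. For MBNL2 it was 0.0986 (0.0392 to 0.202) against 0.181 (0.10 to 0.294). These values lay close to the deposited ones, and their exact binomial 95% intervals also overlapped between lines.

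**Figure D1:**
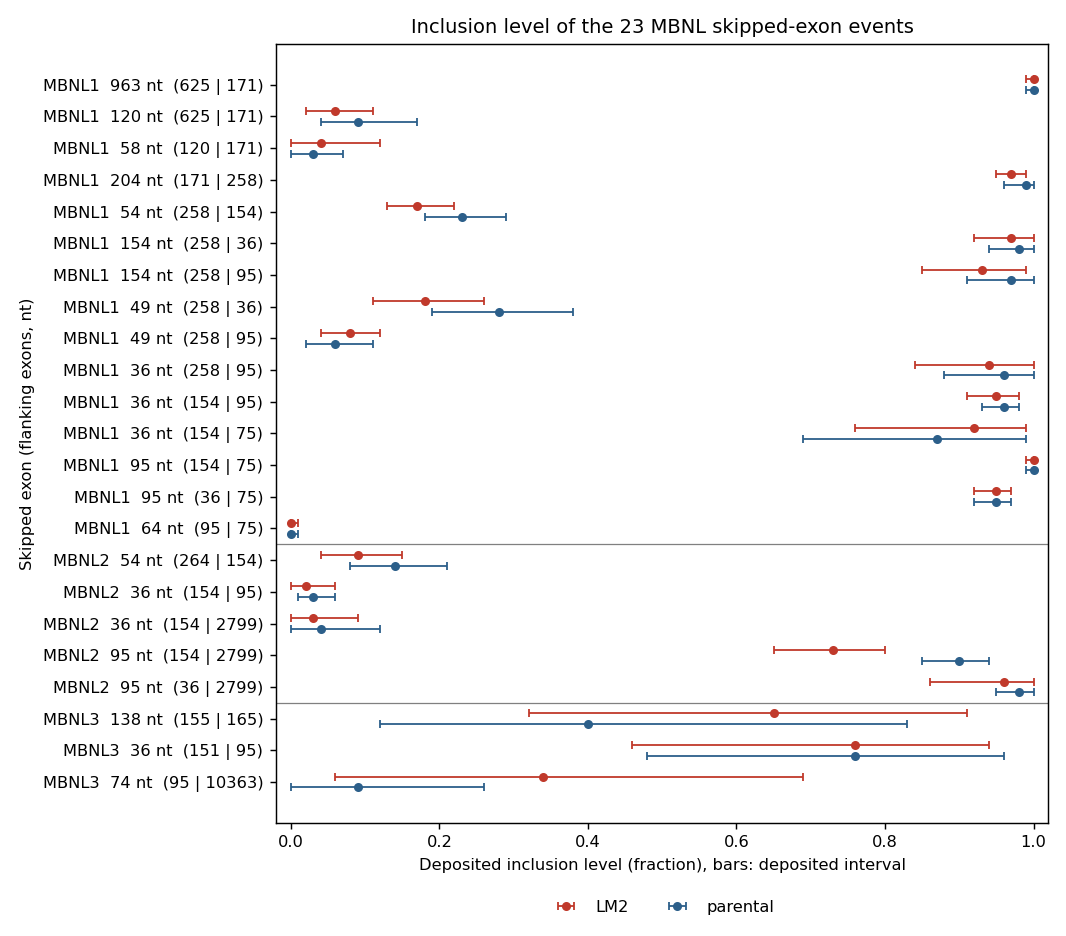
Deposited inclusion level (fraction, x axis) of all 23 MBNL events in LM2 and parental cells, with bars for the deposited interval; each row gives the length of the skipped exon and, in brackets, of its flanking exons. The pair of 54-nt exons lies below 0.3 in both lines, and the 95-nt exon of MBNL2 between the 154-nt and 2799-nt exons is the event whose intervals stand apart.

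The first coding exon of MBNL1, the other autoregulated exon, lay at the opposite end of the scale. It carries an annotated start codon, and muscleblind-like protein is known to act on its exclusion, which gives a protein without the first zinc fingers. This exon of 963 nt (chromosome 3, 152299405 to 152300367), of which 174 nt are coding, had a level of 1.0 (0.99 to 1.0) in both lines. Inclusion reads numbered 5400 in LM2 and 4151 in parental cells, and exclusion reads 6 and 5. Reads alone gave 0.998 in each line. The share of its listed reads that fit neither isoform was 84.2% for LM2 and 87.0% for parental cells, against 44.1% and 43.1% at the MBNL1 54-nt exon. Inclusion reads take in those inside the 963-nt exon, and the level from reads alone is not corrected for that length. A skip by another junction would not count as exclusion here, and 9 of 24 annotated MBNL1 transcripts hold this exon. Exclusion over the junction that joins the 625-nt and 171-nt exons was thus seen in few reads. The autoregulated exons did not share a deposited level. The junction of the 625-nt and 171-nt exons also spans a rare 120-nt exon (chromosome 3, 152335111 to 152335230). Its level was 0.06 (0.02 to 0.11) in LM2 and, in parental cells, 0.09 (0.04 to 0.17), from 4 and 7 inclusion reads. A 58-nt exon between the 120-nt exon and the next coding exon was at 0.04 (0 to 0.12) and 0.03 (0 to 0.07), with 0 and 1 inclusion reads.

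The 36-nt exon, linked to self-association of MBNL1, was used in opposite ways by MBNL1 and MBNL2. It keeps the reading frame, and it was listed in all 3 genes: in MBNL1 at chromosome 3, 152455542 to 152455577, in MBNL2 at chromosome 13, 97365136 to 97365171, and in MBNL3 on the minus strand of chromosome X, 132384663 to 132384698. The paralogous sequences are shown because their inclusion differed so widely, and capitals mark the 10 positions that are not the same in all 3.
MBNL1 36-nt exon: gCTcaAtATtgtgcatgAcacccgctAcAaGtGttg
MBNL2 36-nt exon: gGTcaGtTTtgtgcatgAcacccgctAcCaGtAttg
MBNL3 36-nt exon: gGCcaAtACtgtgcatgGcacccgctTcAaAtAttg

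In MBNL1 the 36-nt exon was nearly always present. Between the 154-nt and 95-nt exons its level was 0.95 (0.91 to 0.98) in LM2 and, in parental cells, 0.96 (0.93 to 0.98), from 281 inclusion and 7 exclusion reads (LM2) and 333 and 6 (parental). In MBNL2, between exons of the same lengths, it was 0.02 (0 to 0.06) in LM2 and, in parental cells, 0.03 (0.01 to 0.06), from 0 inclusion and 38 exclusion reads against 4 and 81. Reads alone gave 0.953 (0.906 to 0.981) for MBNL1 and 0 (0 to 0.0485) for MBNL2 in LM2, and 0.965 (0.927 to 0.987) and 0.0241 (0.00653 to 0.0616) in parental cells. The genes were far apart in both lines by either measure, although 31 of the 36 bases are identical. The MBNL3 exon stood at 0.76 (0.46 to 0.94) in LM2 and, in parental cells, 0.76 (0.48 to 0.96). It had 7 and 6 inclusion reads and no exclusion read in either line, so that its interval spans most of the upper range. The MBNL1 exon was listed in 2 further events, between the 258-nt and 95-nt exons (0.94 and 0.96) and between the 154-nt and 75-nt exons (0.92 and 0.87), each with 0 exclusion reads in both lines. MBNL2 had 1 further event, up to its last exon, at 0.03 (0 to 0.09) and 0.04 (0 to 0.12).

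**Figure D2:**
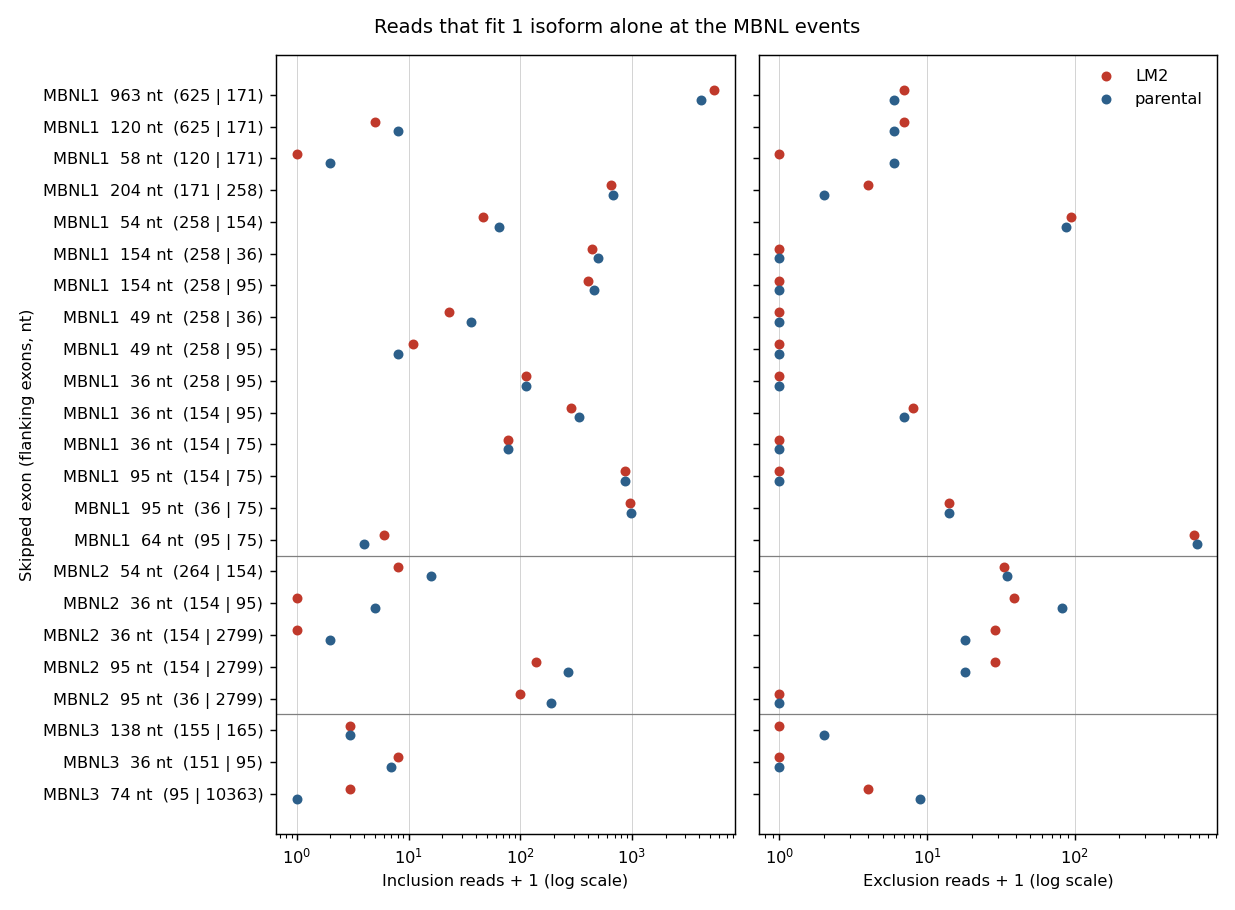
Inclusion reads (left) and exclusion reads (right) at the 23 MBNL events, each plus 1 on a log scale, in LM2 and parental cells. The 36-nt exon between the 154-nt and 95-nt exons has 281 and 333 inclusion reads in MBNL1 but 0 and 4 in MBNL2, and all 3 MBNL3 events have under 10 reads of each kind in each line.

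The 95-nt exon near the 3′ end changes the reading frame and so the C-terminal end of the protein. In the annotation, the 2 MBNL2 transcripts that hold it and reach the last exon code for 12 nt more there, and the 3 that lack it code for 125 nt. In MBNL1 the corresponding stretches are 54 nt in 11 transcripts with the exon and 29 nt in 5 transcripts without it. The exon lies at chromosome 3, 152456267 to 152456361 in MBNL1 and at chromosome 13, 97366459 to 97366553 in MBNL2, both on the plus strand. In MBNL3 (chromosome X, 132382178 to 132382272, minus strand) it appeared only as a flanking exon. MBNL1 and MBNL2 share 81 of 95 bases, and capitals mark the 23 positions that vary among the 3 genes. The sequences are shown because this was the MBNL exon with the widest difference between the lines, in MBNL2, among those past the read minimum.
MBNL1 95-nt exon: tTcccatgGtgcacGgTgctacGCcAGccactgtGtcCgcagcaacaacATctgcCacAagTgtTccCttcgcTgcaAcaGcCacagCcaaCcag
MBNL2 95-nt exon: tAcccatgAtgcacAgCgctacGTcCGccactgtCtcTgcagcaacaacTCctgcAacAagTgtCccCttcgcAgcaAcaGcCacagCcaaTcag
MBNL3 95-nt exon: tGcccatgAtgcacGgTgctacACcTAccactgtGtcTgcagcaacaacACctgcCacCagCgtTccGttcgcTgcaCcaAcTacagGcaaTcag

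The MBNL2 95-nt exon was used less in LM2 than in parental cells, and the deposited intervals did not overlap. Between the 154-nt exon and the last exon of 2799 nt its level was 0.73 (0.65 to 0.80) in LM2 and, in parental cells, 0.90 (0.85 to 0.94). The LM2 library held 136 inclusion and 28 exclusion reads for it, the parental library 265 and 17. In the authors' deposited table the difference was -0.17 and the Bayes factor 67.9. Reads alone gave 0.708 (0.617 to 0.791) and 0.886 (0.827 to 0.931). The odds of inclusion over exclusion reads in LM2 were 0.316 times those in parental cells, with an exact conditional interval of 0.155 to 0.615 that compares the pooled libraries only. Of the reads that fit any isoform here, 93.5% (LM2) and 92.1% (parental) fit both.

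A further view, chosen after the values were seen, used only reads that leave the 154-nt exon of MBNL2 and join either the 95-nt exon or the last exon. These junctions are the skipping junctions of 2 listed events. In LM2, 38 such reads joined the 95-nt exon and 28 the last exon, so that 57.6% used the 95-nt exon (exact Clopper-Pearson 95% interval 44.8 to 69.7). In parental cells 81 and 17 did, or 82.7% (73.7 to 89.6). The odds ratio was 0.290 (0.130 to 0.617). The reads to the last exon are the same 28 and 17 exclusion reads as above. Those to the 95-nt exon are also among the 136 and 265 inclusion reads above, so this is not a separate support. When the event was defined from the 36-nt exon, which MBNL2 hardly used, the 95-nt exon stood at 0.96 (0.86 to 1.0) against 0.98 (0.95 to 1.0), with 0 exclusion reads in either line.

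**Figure D3:**
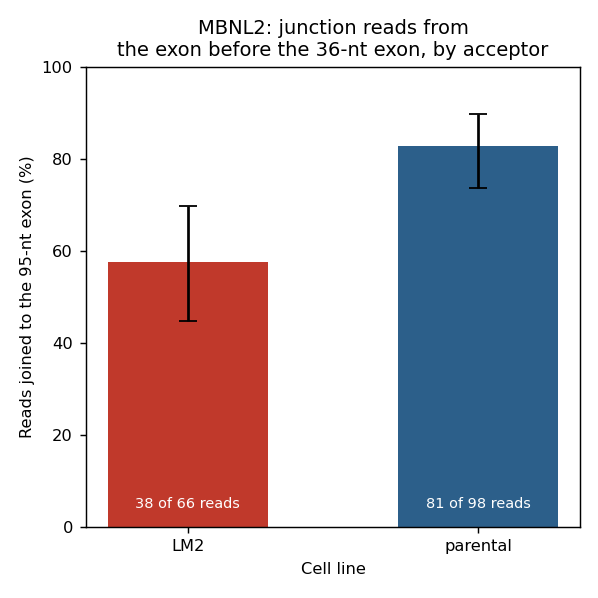
Share (%) of junction reads leaving the MBNL2 154-nt exon that join the 95-nt exon in place of the last exon, in LM2 (38 of 66 reads) and parental cells (81 of 98 reads). Bars start at 0 and the error bars are exact Clopper-Pearson 95% intervals, which do not overlap.

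In MBNL1 the 95-nt exon stood at the same deposited level in both lines. From the 154-nt to the 75-nt exon its level was 1.0 (0.99 to 1.0) in both, with 857 and 869 inclusion reads and 0 exclusion reads. From the 36-nt exon it was 0.95 (0.92 to 0.97) in both, with 961 and 13 reads in LM2 and 975 and 13 in parental cells, and an odds ratio of 0.986 (0.419 to 2.32). This was the MBNL event in which no read fit both isoforms. The intervals of the MBNL1 and MBNL2 odds ratios overlapped, and a difference between the genes was not tested. The 64-nt coding exon that follows in MBNL1 (chromosome 3, 152458130 to 152458193) was almost never used, at 0 (0 to 0.01) in both lines, from 5 inclusion and 642 exclusion reads (LM2) and 3 and 669 (parental).

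The remaining MBNL1 exons were nearly constitutive or nested. A 204-nt coding exon (chromosome 3, 152432717 to 152432920) stood at 0.97 (0.95 to 0.99) in LM2 and, in parental cells, 0.99 (0.96 to 1.0), with 3 and 1 exclusion reads. The 154-nt exon that follows the 54-nt exon was at 0.97 and 0.98 in an event up to the 36-nt exon and at 0.93 and 0.97 in an event up to the 95-nt exon, with 0 exclusion reads throughout. A 49-nt exon (chromosome 3, 152447725 to 152447773) lies within the 154-nt exon and ends at the same base. Its level was 0.18 (0.11 to 0.26) in LM2 and, in parental cells, 0.28 (0.19 to 0.38) up to the 36-nt exon, and 0.08 and 0.06 up to the 95-nt exon. It had 22 and 35 inclusion reads in the first event and 10 and 7 in the other, and 0 exclusion reads, so that reads alone gave 1.0. Unless they cross its start, these inclusion reads can also come from transcripts with the whole 154-nt exon. They do not by themselves show that the 49-nt exon was used. Here the deposited level and the read-based level were furthest apart. Reads that fit both isoforms numbered 570 and 580 in the first event, the same numbers as at the 154-nt exon between the same flanks.

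MBNL3 was covered thinly. Its 74-nt exon before the last exon (chromosome X, 132381359 to 132381432), of which 54 nt are coding, was at 0.34 (0.06 to 0.69) in LM2 and, in parental cells, 0.09 (0 to 0.26), from 2 inclusion and 3 exclusion reads against 0 and 8. A 138-nt exon without annotated coding sequence (132439435 to 132439572) was at 0.65 (0.32 to 0.91) and 0.40 (0.12 to 0.83), from 2 inclusion reads in each line. Both differed by 0.25 in deposited level, more than the MBNL2 95-nt exon did, but the authors' deposited table gives Bayes factors of 1.35 and 1.24 for them. The deposited intervals overlapped in both. At the 74-nt exon 99.4% of 779 fitting reads in LM2 and 99.2% of 953 in parental cells fit both isoforms. RAP2C-AS1, annotated on the other strand, overlaps the 36-nt and 74-nt exons of MBNL3 and flanking exons of all 3 MBNL3 events, among them the last exon of 10363 nt. AC026347.1 overlaps the 64-nt and 75-nt exons of MBNL1, and MBNL1-AS1 the 625-nt exon before the first coding exon. The sources used here do not say whether the authors' counting used strand, and without strand, reads of the paired genes cannot be told apart.

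**Figure D4:**
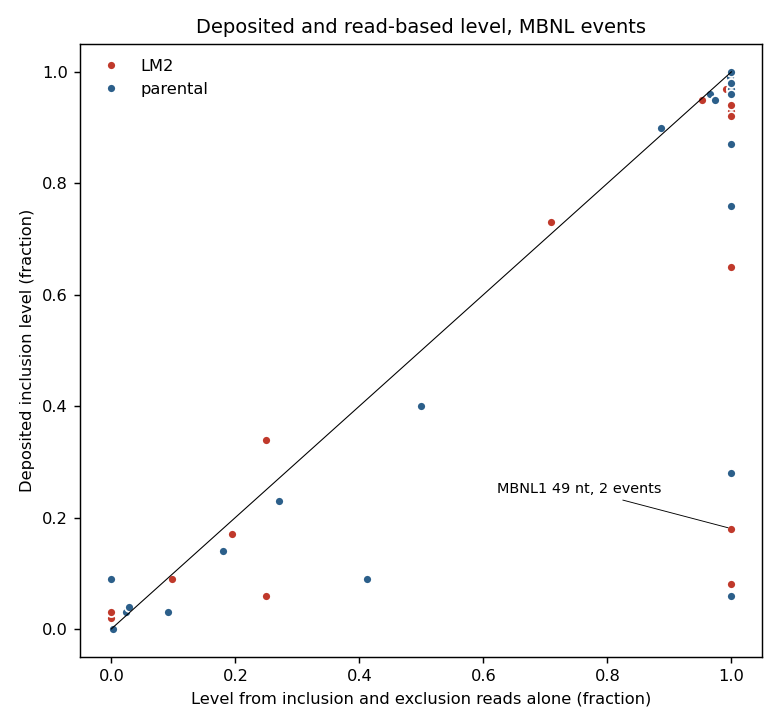
Deposited inclusion level (y axis) against the level from inclusion and exclusion reads alone (x axis), both as fractions, for the MBNL events in each line; the line marks equality, and 1 LM2 value without such reads is not drawn. The 49-nt exon of MBNL1 lies far below the line at a read-based level of 1.0, and the 120-nt exon of MBNL1 (0.25 and 0.412 from reads, 0.06 and 0.09 deposited) lies below it as well.

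Of the 16 exons, 10 passed the read minimum of 10 inclusion plus exclusion reads in each line, with at least 1 read of each kind over the lines together, 7 in MBNL1, 3 in MBNL2 and none in MBNL3. Called exons had a Bayes factor no lower than 10 and levels 0.2 or more apart. By that rule 0 of the 10 were called higher and 0 lower in LM2, where 0.921% and 0.326% of all 14109 tested exons were. At a difference of at least 0.1, 1 of 10 was lower, the 95-nt exon of MBNL2, and 0 were higher, beside 0.617% and 1.45% of all exons. The same exon was the only 1 of 10 whose deposited intervals did not overlap (lower in 1.02% and higher in 2.21% of all exons). It was also the only 1 of 10 whose read odds ratio interval excluded 1, where 3.04% of all exons were lower and 3.17% higher by that rule. Among all tested exons, 2.61% had a difference of -0.17 or lower. A difference of -0.06 or lower, as at the MBNL1 54-nt exon, was found in 12.9%, and of -0.05 or lower, as at the MBNL2 54-nt exon, in 15.3%. Of the 10 exons 7 had a difference below 0, 3 had 0 and 0 were above 0, with a median of -0.015, against a median of 0 and quartiles of -0.02 and 0.03 over all tested exons, of which 38.7% lay below 0.

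**Figure D5:**
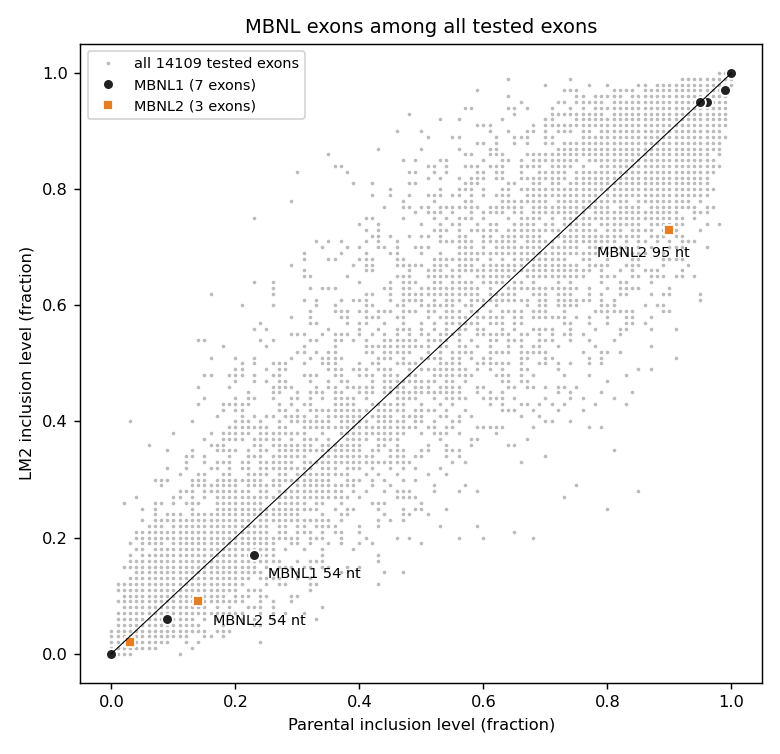
Deposited inclusion level in LM2 (y axis) against parental cells (x axis), as fractions, for all 14109 tested exons in grey and the tested exons of MBNL1 (7) and MBNL2 (3); the line marks equality. The MBNL2 95-nt exon lies below the line at 0.90 and 0.73, and the other MBNL exons lie near it.

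By the pair of levels in the lines, the exons of other genes most like the MBNL1 54-nt exon were in CDCA7, HADH, AKAP8, UPF3A and ARSJ, each 0.01 away (Euclidean distance over the 2 levels). They were the nearest among 1 exon from each of 3822 genes with at least 50 informative reads per line, and 6 genes lay within that distance. UPF3A encodes a nonsense-mediated decay factor and AKAP8 an anchoring protein of the nucleus. With 2 values per exon, this likeness says little beyond the levels themselves.

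Reads at the events also gave a view of transcript level, in which fewer expressing cells and less RNA per cell cannot be told apart. At the best covered event of each gene, reads that fit at least 1 isoform, scaled to the library totals, were 1.58 times as many in LM2 for MBNL1 (5875 against 4657 reads, interval 1.52 to 1.64). The ratio was 0.890 for MBNL2 (2527 against 3549, 0.846 to 0.937) and 1.02 for MBNL3 (779 against 953, 0.929 to 1.12). The MBNL1 event is that of the 963-nt first coding exon, and over all 15 MBNL1 events the ratio ranged from 0.962 to 1.58 with a median of 1.18. The next highest MBNL1 ratio was 1.26 (1.14 to 1.39), at the 49-nt exon up to the 95-nt exon. For MBNL2 the ratio ranged from 0.776 to 0.910 over 5 events, and for MBNL3 from 0.782 to 1.02 over 3. The events behind the MBNL1 value of 1.58 and the MBNL3 value of 1.02 include exons overlapped by MBNL1-AS1 and RAP2C-AS1 on the other strand, whose part in the reads was not tested. No member passed a 2-fold difference, which 4.64% of 10137 genes exceeded upward and 12.7% downward. Across genes the log2 ratio had a median of -0.14. After subtracting it, the log2 values at the best covered events were 0.80 for MBNL1, -0.03 for MBNL2 and 0.17 for MBNL3. The size of the MBNL1 value thus rests on the event of the 963-nt exon, while the median ratio over all 15 MBNL1 events was 1.18.

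Muscleblind-like proteins share targets and act beside or against other RNA-binding proteins. Of 27 listed partner, antagonist and cofactor genes 15 had event reads in both lines. CELF1, the classical antagonist of MBNL1 on muscle exons, had a ratio of 0.993 (0.922 to 1.07), CELF2 of 1.44 (1.17 to 1.78) and RBFOX2, a splicing factor with overlapping targets, of 0.989 (0.922 to 1.06). RBM24, a muscle splicing regulator, was at 2.46 (2.21 to 2.75) with 995 reads against 505, and DMPK, the kinase gene that carries the repeat of myotonic dystrophy, at 2.05 (1.43 to 2.98) with 82 against 50. These were the 2 of 15 partner genes past 2-fold upward, and 0 were past it downward, beside 4.64% and 12.7% of all genes. In exons of the partner genes, 1 of 41 tested was called higher (2.44%, beside 0.921% of all exons) and 0 lower (beside 0.326%), with a median difference of 0. It was a 75-nt exon of STAU1, a double-stranded RNA-binding protein, at 0.71 (0.59 to 0.82) against 0.41 (0.33 to 0.51). It had 101 inclusion and 3 exclusion reads in LM2 and 88 and 6 in parental cells, and reads alone gave 0.944 (0.848 to 0.988) and 0.880 (0.764 to 0.954), which overlap.

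Of 172 tested exons in 46 of 62 genes listed as targets, 3 were called higher and 2 lower, 1.74% and 1.16% beside 0.921% and 0.326% over all exons, and 167 were not called. The median difference was 0.005. The list holds all tested exons of these genes and not only those known to respond to muscleblind-like proteins, and it was written with these calls known, so it gives no independent support. Higher were exons of TEAD1, a Hippo pathway transcription factor (0.85 against 0.47), ITGA6, a laminin receptor subunit (0.85 against 0.63), and MPRIP, a myosin phosphatase partner (0.73 against 0.52). Lower were a 45-nt exon of the exocyst subunit EXOC1 (0.14 against 0.47) and a 105-nt exon of the kinesin KIF13A (0.16 against 0.43), where inclusion reads were 7 against 48 and 11 against 59. Reads alone gave the same direction for all 5 exons, with intervals that did not overlap for EXOC1, KIF13A, ITGA6 and MPRIP. For TEAD1 they met at 0.845 and the difference was smaller (0.888 against 0.783).

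The muscleblind-like motif, written as TGCT or as TGCC or as CGCT or as CGCC, was searched in the exon sequences on both strands, overlapping matches included. On the transcript strand the 54-nt exon held 0 matches in MBNL1 and 1 in MBNL2, where 46.6% of 232 listed 54-nt exons held at least 1. The 36-nt exon held 1 in each of the 3 genes, where 36.8% of 144 exons of that length did. The 95-nt exon held 4 in MBNL1, 2 in MBNL2 and 4 in MBNL3, where 71.9% of 228 held at least 1, 42.1% at least 2 and 20.6% at least 3. On the other strand the counts were 2 and 3 for the 54-nt exons, 0, 0 and 1 for the 36-nt exons and 1, 3 and 3 for the 95-nt exons. The flanking introns, in which the family is known to bind around the 54-nt exon, were not searched.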

How the data were processed

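RNA of 4 samples, 2 per line, was made into ScriptSeq v2 libraries, and reads were aligned with STAR 2.7 to hg38, per the labels and the submitters' processing notes. The headers name MISO for the skipped exons, and its version, settings and event annotation and how replicates were combined were not given in the sources used here. Deposited tables hold inclusion levels as a fraction with interval bounds of a level not given, and read counts in classes, written as text. The deposited comparison by the authors holds the difference as a score, LM2 minus parental level, and the Bayes factor as a ratio. Every listed event had at least 20 reads. Reads that fit neither isoform were 74.7% of those listed for LM2 and 75.7% for parental cells.

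Computed here were gene assignment with GENCODE 29, read-based levels with exact binomial 95% intervals, odds ratios with exact conditional 95% intervals (0.5 added to each count for the value only), and scaled event-read ratios with exact binomial intervals (Python 3.11.15, scipy 1.17.1). For an exon in several events, the event with most inclusion plus exclusion reads was used. The read odds ratio rule and the interval of the event-read ratio were checked on simulated reads. The calling rule on Bayes factor and difference was not. The simulated reads were drawn from the counting model that the intervals assume, so replicate variation was outside the check. Named were all MBNL exons, the called exons of the target and partner lists, and the 5 exons nearest in level. Members, lists and thresholds were chosen with earlier results of these data known. The planned groups also named an 18-nt localisation exon, but no MBNL exon of that length was listed or found in the annotation. Exon sequences came from the GENCODE transcripts.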

Additional observations from a re-analysis of the deposited data

How the results depend on the processing

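No paired analysis was possible because each table holds 1 value per line, and for the same reason no replicate could be left out. A level corrected for exon length was not run, as the sources used here give no read length. The count of 0 called MBNL exons held with a Bayes factor of at least 5 or 20, at least 20 informative reads, no read minimum and every event counted. It became 1, the MBNL2 95-nt exon, at a difference of 0.1, and also 1 for intervals that do not overlap and 1 for a read odds ratio interval that excludes 1, both added after the data were seen. Over all exons the 130 higher and 46 lower calls became 205 and 87 at a difference of 0.1, 213 and 77 with no read minimum, 312 and 144 by intervals and 447 and 429 by read odds. At a difference of 0.1 the target list had 6 higher and 5 lower exons and the partner list 2 higher. Of 26 alternative differences of level for the 10 exons, 22 stayed within counting error, which is wide where reads are few. The alternatives largely re-use the same reads, so counting error is a loose scale for their disagreement and this count says little about robustness. Among these 22, the MBNL1 120-nt exon moved from -0.03 to -0.162 and -0.183 by read-based levels, from 10 and 12 informative reads. Outside counting error were the MBNL1 204-nt exon with inclusion reads as counted (-0.003) and the MBNL2 36-nt exon likewise (-0.047). So were the MBNL1 36-nt exon between the 154-nt and 75-nt exons (0.05, with 0 exclusion reads) and the MBNL2 95-nt exon from the 36-nt exon (-0.02, with 0 exclusion reads). The MBNL1 read ratio was 1.33 as a sum over exons, 1.74 relative to the median gene and 1.35 with all listed reads. Each of these includes the event of the 963-nt exon. The MBNL2 ratio was 0.979 relative to the median gene and 0.682 from inclusion plus exclusion reads, and that of MBNL3 1.13 and 0.733. The cause of these shifts was not tested. MBNL3 had at most 8 inclusion plus exclusion reads per event and line.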
